A study of Homo sapiens with 7 samples.

Results

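The microRNAs described here are the 3 members of the miR-25/92 seed family that were measured at depth in the captures: miR-92a-3p, miR-92b-3p and miR-25-3p. They were chosen by name and make up 3 of the 480 mature microRNA names in the deposited table and 4 of its 498 rows, because miR-92a-3p is listed under both of its hairpins. The cells were A375, an established line from a human melanoma, in which an mRNA was pulled down with probes after crosslinking (1% formaldehyde for 10 min, 24 h after seeding) and the bound microRNAs were sequenced, a procedure named miR-CATCHv2.0. There were 3 captures with the ODD probes and 3 with the EVEN probes, both sets aimed at the BRAF-X1 3' UTR (BRAF is a kinase of the MAPK pathway), and 1 capture with scrambled probes. The 6 ODD and EVEN captures are called X1 probes. All 7 captures came from the same cell line and protocol, the design text calls the ODD and EVEN captures independent, and no second scrambled capture was analysed here.

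MicroRNAs guide the silencing complex to mRNAs chiefly through the seed, bases 2 to 8 from the 5' end, so that family members with the same seed can share target sites. miR-92a is made from a hairpin of the miR-17-92 cluster, a polycistron often amplified in cancer, and from a near-copy in the miR-106a-363 cluster on the X chromosome. miR-25 comes from the miR-106b-25 cluster inside the gene MCM7, and miR-92b from a locus of its own.

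The mature sequences of the 3 members and of miR-32-5p, a relative with the same seed, are shown 5' to 3' with the seed in capitals, because the members are defined by the seed and told apart only by the bases outside it. RefSeq supplied them (GRCh38.p14).
hsa-miR-92a-3p: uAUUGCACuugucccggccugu
hsa-miR-92b-3p: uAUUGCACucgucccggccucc
hsa-miR-25-3p: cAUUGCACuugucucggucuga
hsa-miR-32-5p: uAUUGCACauuacuaaguugca

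All members are 22 bases long. miR-92b-3p matched miR-92a-3p at 19 of 22 bases, and the differences were U10C, G21C and U22C, with positions counted from 1 at the 5' end and the base of miR-92a-3p given first. miR-25-3p matched miR-92a-3p at 18 of 22 bases and differed by U1C, C14U, C18U and U22A. miR-92b-3p and miR-25-3p matched at 16 of 22 bases. Position 10 differs between miR-92a-3p and miR-92b-3p also in reads that end early at the 3' side, but how mismatches were treated in mapping is not stated, so reads moved between these members were not tested for. The G and C content was 54.5% for miR-92a-3p, 63.6% for miR-92b-3p and 50.0% for miR-25-3p. Of the 2370 human mature names in the RefSeq table, 6 (0.253%) carry this seed, and 4 of these 6 were measured here. The match to the seed in a target, read 5' to 3' as DNA, is GTGCAAT; whether the captured 3' UTR holds it was not analysed here.

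The hairpins lie in 4 places in GRCh38.p14. MIR92A1 is at chr13:91351314-91351391 on the plus strand inside the lncRNA gene MIR17HG, with 5 other microRNA genes within 5000 bases (MIR17, MIR18A, MIR19A, MIR20A and MIR19B1). MIR92A2 is at chrX:134169538-134169612 on the minus strand inside MIR106AHG, also with 5 microRNA genes within 5000 bases (MIR363, MIR19B2, MIR20B, MIR18B and MIR106A). MIR25 is at chr7:100093560-100093643 on the minus strand inside the protein-coding gene MCM7, next to MIR93 and MIR106B. MIR92B is at chr1:155195177-155195272 on the plus strand, overlapping the lncRNA gene THBS3-AS1, with 0 other microRNA genes within 5000 bases.

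The values are RPM, reads of a row scaled to a total of 1e+06 over all rows of the table. Depth over all rows was 4049 to 35508 reads with X1 probes and 4647 reads with scrambled probes. The worth of 1 read ran between 28.2 and 247 RPM. The 3 libraries under 5000 reads were ODD replicate 3, EVEN replicate 3 and the scrambled library, and these are also the 3 whose descriptions carry the number 12, whereas replicates 1 carry 9 and replicates 2 carry 10. Nothing in the labels says what this number marks, and depth and number cannot be told apart here. Of the 2 pigment-cell markers listed, miR-211-5p was looked for and was not among the 480 mature names. The other, miR-204-5p, averaged 2286 ± 517 RPM with X1 probes (SD, n = 6). With scrambled probes it had 861 RPM, from 4 reads, and the difference did not pass by limma.

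The family held 24.0 to 29.3% of the captured microRNA reads in every library, whichever probes were used. With each mature name counted once, the 3 members summed to 29.3%, 24.0% and 25.2% of reads in ODD replicates 1 to 3, to 25.9%, 25.2% and 29% in EVEN replicates 1 to 3, and to 26.4% with scrambled probes (exact 95% interval 24.9 to 27.9). ODD libraries averaged 26.2% ± 2.76 and EVEN libraries 26.7% ± 2.03 (SD, n = 3 each). The scrambled library lay inside the range of the 6 X1-probe libraries. Within the family, miR-92a-3p held 76.7% ± 2.84 of the reads of the X1-probe libraries (SD, n = 6), against 72.2% of the scrambled one. The share of miR-92b-3p was 20.6% ± 2.46 with X1 probes and 25.9% with scrambled probes, and that of miR-25-3p 2.70% ± 0.737 with X1 probes and 1.85% with scrambled probes (SD, n = 6 for X1 probes).

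Dominance in the captures was a property of miR-92a-3p and, less so, of miR-92b-3p, and not of miR-25-3p. miR-92a-3p ranked first among the 480 names in all 7 libraries, and its mean of 147167 RPM over the 7 stood above the 42664 RPM of let-7a-5p, the next name, with the ranges apart (138800 to 162539 against 33984 to 53917 RPM). miR-92b-3p ranked between 2 and 5 by library. Its mean of 41625 ± 8167 RPM did not differ from that of let-7a-5p beyond the spread (42664 ± 7360 RPM, SD, n = 7 each), and it was the higher of the pair in 4 of 7 libraries. Below it, miR-181a-5p had 34235 ± 7144 RPM, and miR-92b-3p was higher in 5 of 7 libraries. miR-25-3p ranked between 21 and 42. Its mean was 4982 ± 1395 RPM, next to 5033 ± 746 RPM for miR-146a-5p above it and 4734 ± 1943 RPM for let-7e-5p below it (SD, n = 7 each), and these neighbours overlapped.

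**Figure D1:**
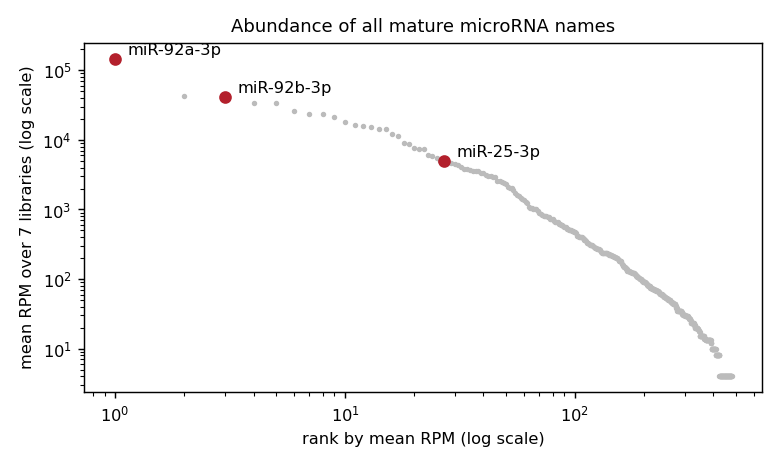
Mean RPM over the 7 libraries (vertical axis, log scale) against rank (horizontal axis, log scale) for the 480 mature names, with the 3 family members in red. miR-92a-3p stands apart at 147167 RPM, miR-92b-3p is at place 3 and miR-25-3p is at place 27.

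miR-92a-3p, the most abundant microRNA of the captures, had 162539, 139152 and 138800 RPM in ODD replicates 1 to 3, 146685, 141940 and 158381 RPM in EVEN replicates 1 to 3, and 142673 RPM with scrambled probes. These rest on 562 to 4941 reads with X1 probes and 663 reads with scrambled probes (exact 95% interval 132736 to 153060 RPM). ODD replicate 1 and EVEN replicate 3 were the highest, the probe sets overlapped, and the scrambled library lay inside the range of each. The coefficient of variation over the 6 X1-probe libraries was 6.90%. This was the second lowest among the 68 names of at least 1000 RPM on average, whose median was 23.2%. Counting error adds more to this measure in names with fewer reads, so the place does not show that miR-92a-3p is unusually stable.

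miR-92b-3p, which shares all but 3 bases with miR-92a-3p, had 45371, 30556 and 43961 RPM in ODD replicates 1 to 3, 34115, 35813 and 50346 RPM in EVEN replicates 1 to 3, and 51216 RPM with scrambled probes. The scrambled value came from 238 reads (exact 95% interval 45054 to 57949 RPM) and was above all 6 X1-probe libraries, although its interval held the values of ODD replicate 1 and EVEN replicate 3. The scrambled library was above all 6 X1-probe libraries for 22.7% of the 242 tested microRNAs. These include names with few reads, where 1 scrambled read is worth 215 RPM, and the share among abundant names was not analysed here. The libraries with description number 12 included the 2 highest values of miR-92b-3p, and ODD replicate 2, the deepest library, had the lowest.

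miR-25-3p, the member made from the MCM7 locus, had 4620, 4196 and 6915 RPM in ODD replicates 1 to 3, 3336, 6486 and 5664 RPM in EVEN replicates 1 to 3, and 3658 RPM with scrambled probes. It rested on 27 to 149 reads with X1 probes and on 17 with scrambled probes, whose exact 95% interval of 2132 to 5851 RPM reached above 4 of the 6 X1-probe values. EVEN replicate 1 was below the scrambled library and the other 5 X1-probe libraries were above it. The coefficient of variation was 26.7% for miR-25-3p and 19.1% for miR-92b-3p over the 6 X1-probe libraries.

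**Figure D2:**
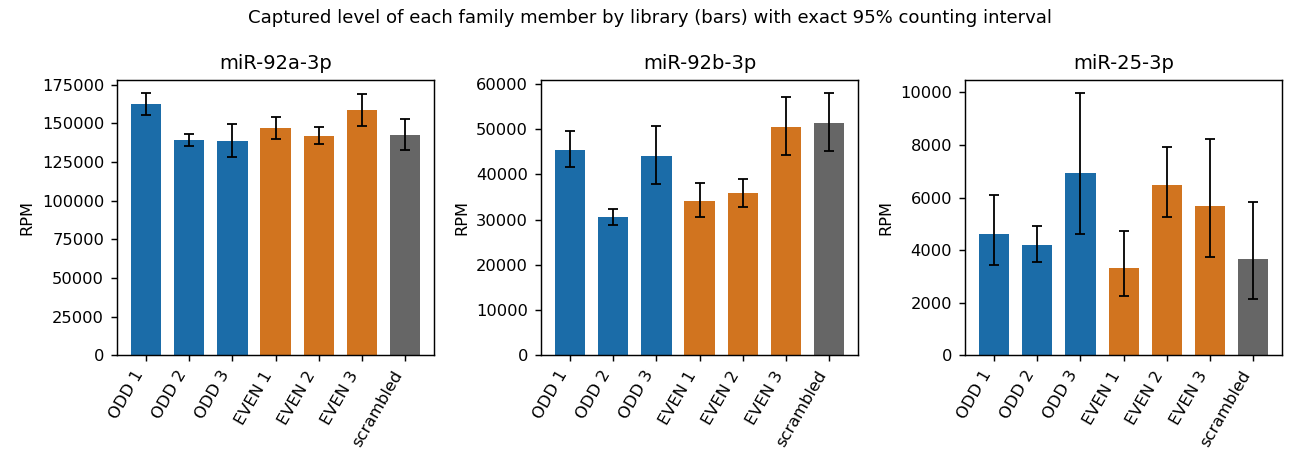
RPM of each member (vertical axes, each from 0) in the ODD (blue), EVEN (orange) and scrambled (grey) libraries, with exact 95% intervals of counting error as whiskers. miR-92a-3p stays between 138800 and 162539 RPM, miR-92b-3p is highest with scrambled probes at 51216 RPM, and the intervals of miR-25-3p are wide in the libraries with few reads.

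The captures address which microRNAs are bound to the BRAF-X1 mRNA, and for this family the X1 probes were set against the scrambled probes. None of the 3 members passed the test, in either direction. The log2 difference, X1 probes minus scrambled on the log2(RPM + 10) scale, was 0.049 for miR-92a-3p (limma, SE 0.26, 95% interval -0.48 to 0.58, adjusted p = 0.923). For miR-92b-3p it was -0.38 (limma, SE 0.30, 95% interval -0.98 to 0.22, adjusted p = 0.673), and for miR-25-3p 0.46 (limma, SE 0.40, 95% interval -0.36 to 1.28, adjusted p = 0.673). Over all 242 microRNAs tested 0.826% passed, so 0 of 3 is near the background. At an unadjusted p under 0.05 the count was also 0 of 3, against 8.68% of all tested, and with voom weights 0 of 3 passed the adjusted threshold. The median difference was 0.049 for the 3 members and 0.096 over all tested. In this fit the intervals allow a level with X1 probes of 0.717 to 1.49 times the scrambled level for miR-92a-3p. They allow 0.508 to 1.17 times for miR-92b-3p and 0.782 to 2.43 times for miR-25-3p. These widths depend on the setting. Without the eBayes trend the log2 intervals were -1.13 to 1.23, -1.73 to 0.98 and -1.08 to 2.00, in the same order. With no filter that of miR-92a-3p was -0.22 to 0.32. Within description number 12, which the scrambled library shares with replicate 3 of each probe set, the differences were 0.056 for miR-92a-3p, -0.12 for miR-92b-3p and 0.77 for miR-25-3p. With a single scrambled library, the fit assumes that it varies like the other groups, and RPM is a share of the library, so that a difference in the total amount of RNA captured would not show.

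The ODD and EVEN probe sets target the same 3' UTR, and neither set captured more of any member by the test. miR-92a-3p had means of 146830 ± 13606 RPM (ODD) and 149002 ± 8461 RPM (EVEN; SD, n = 3 each), with a log2 difference, ODD minus EVEN, of -0.024 (limma, 95% interval -0.42 to 0.38, adjusted p = 0.982, exact two-sided permutation p = 0.8). miR-92b-3p had means of 39963 ± 8177 RPM (ODD) and 40091 ± 8921 RPM (EVEN), with a log2 difference of -0.0044 (limma, 95% interval -0.46 to 0.45, adjusted p = 0.992, exact permutation p = 1.0; SD, n = 3 each). miR-25-3p had means of 5244 ± 1463 RPM (ODD) and 5162 ± 1634 RPM (EVEN), with a log2 difference of 0.043 (limma, 95% interval -0.57 to 0.66, adjusted p = 0.982, exact permutation p = 1.0; SD, n = 3 each). The smallest p that 3 against 3 can give is 0.1. Over all tested microRNAs 0.413% passed, 0 of 3 members did so with voom weights, and 0 of 3 had an unadjusted p under 0.05, against 4.55% of all tested. The ODD and EVEN libraries of each member overlapped, while those of 7.02% of tested microRNAs did not. Within the numbers 9, 10 and 12 the log2 differences were 0.15, -0.03 and -0.19 for miR-92a-3p, 0.41, -0.23 and -0.20 for miR-92b-3p, and 0.47, -0.63 and 0.29 for miR-25-3p, so each member had both signs. All 3 means differed by less than the SD within a probe set, and the sign of each difference turned when single libraries were left out, so no order between the probe sets is given.

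**Figure D3:**
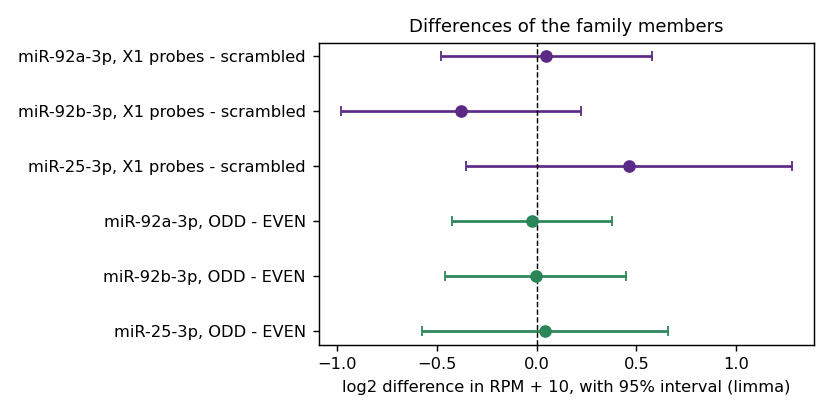
Log2 differences of RPM + 10 (horizontal axis) with 95% intervals from limma, for X1 probes minus scrambled (purple) and ODD minus EVEN (green). All 6 intervals cross 0, and those of miR-25-3p, the member with the fewest reads, are the widest of each comparison.

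Ratios between members do not depend on the scaling of a library. miR-92b-3p had 27.9, 21.96 and 31.7 reads per 100 miR-92a-3p reads in ODD replicates 1 to 3, 23.3, 25.2 and 31.8 in EVEN replicates 1 to 3, and 35.9 with scrambled probes (exact 95% interval 30.8 to 41.7). The 3 highest ratios were those of the 3 libraries with description number 12, which are also the 3 shallowest, and in each probe set replicate 3 was highest. The mean was 27.0 ± 4.20 with X1 probes (SD, n = 6), while the intervals of ODD replicate 3 (26.6 to 37.6) and EVEN replicate 3 (27.4 to 36.8) overlapped that of the scrambled library. Whether depth, the description number or the probes go with this ratio was not tested.

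miR-25-3p had 2.84, 3.02 and 4.98 reads per 100 miR-92a-3p reads in ODD replicates 1 to 3, 2.27, 4.57 and 3.58 in EVEN replicates 1 to 3, and 2.56 with scrambled probes (exact 95% interval 1.48 to 4.14). The X1-probe libraries lay on both sides of the scrambled one, and the libraries with description number 12 did not stand together.

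**Figure D4:**
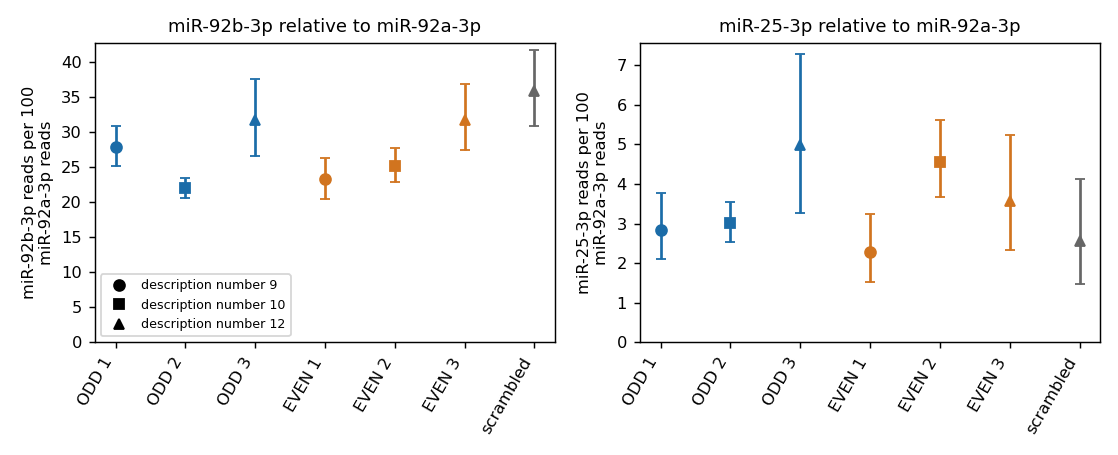
Reads of miR-92b-3p (left) and miR-25-3p (right) per 100 reads of miR-92a-3p by library, with exact 95% intervals; colours are the ODD (blue), EVEN (orange) and scrambled (grey) probes and shapes the description number. The libraries of number 12 hold the 3 highest values on the left, from 31.7 to 35.9, and are spread out on the right.

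The 2 hairpin rows of miR-92a-3p held similar numbers of reads. In ODD replicate 1 the mir-92a-1 row counted 1759 and the mir-92a-2 row 1678, in ODD replicate 2 the counts were 4941 and 4589, and in ODD replicate 3 they were 562 and 530. The EVEN libraries counted 1363 and 1280, 2057 and 1920, and 755 and 722 in the same row order, and the scrambled library 663 and 639. The mir-92a-1 row was the higher in all 7 libraries. Together the 2 rows took 28.7% ± 2.13 of the RPM total of the X1-probe libraries (SD, n = 6), against 28.0% in the scrambled library. A read counted in both rows would enter this share 2 times.

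The 2 copies carry the same mature sequence and differ in bases around it. The hairpin windows are shown as RNA, 4 bases on either side of the mature sequence, with capitals for bases that differ between the copies (chr13:91351357-91351386, plus strand, and chrX:134169540-134169569, minus strand, GRCh38.p14, RefSeq).
MIR92A1: aUGguauugcacuugucccggccuguUgaG
MIR92A2: aAAguauugcacuugucccggccuguGgaA

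The first base after the mature sequence already differs, and 2 of the 4 bases on each side do. The mir-92a-1 row exceeded the mir-92a-2 row by 4.60%, 7.12% and 5.69% of its own reads in ODD replicates 1 to 3, by 6.09%, 6.66% and 4.37% in EVEN replicates 1 to 3, and by 3.62% with scrambled probes (24 reads). The mean excess was 5.81% ± 1.26 with ODD and 5.71% ± 1.19 with EVEN probes (SD, n = 3 each). Whether reads of 1 row are also counted in the other is not stated, so no interval is given for the excess. Other names with several rows had nearly equal ones: 152 and 152 reads for miR-320b, 309 and 308 for miR-103a-3p, and 3807 to 3817 for let-7a-5p. Counting of the same reads in several rows was not tested. Only if the rows were counted separately would the share of the mir-92a-1 row in both be 50.9 to 51.8% by library. Its exact 95% interval would then hold an even split in 5 of the 7 libraries, all but ODD replicate 2 and EVEN replicate 2. With reads counted in both rows, these intervals would not hold. The deepest libraries, ODD replicate 2 and EVEN replicate 2, had the highest excess of their probe sets. Of the 7 names with several rows and at least 100 reads over the libraries, miR-92a-3p had the widest gap between rows, 6.13% of the higher row, followed by 1.22% for miR-181b-5p.

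**Figure D5:**
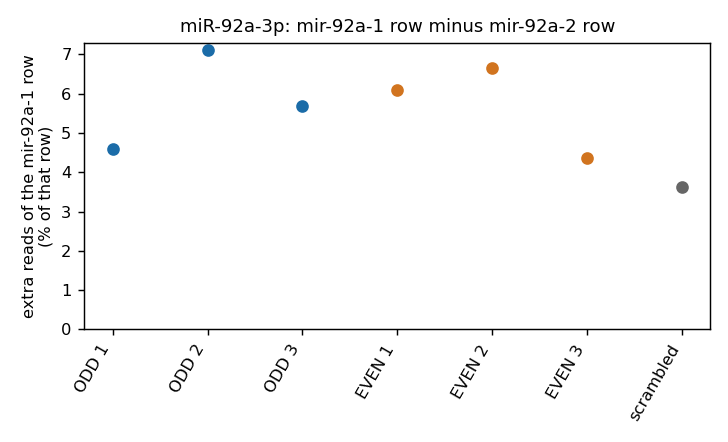
Reads of the mir-92a-1 row above those of the mir-92a-2 row, as a percent of the mir-92a-1 row (vertical axis), by library, as points without intervals (ODD blue, EVEN orange, scrambled grey). All 7 values are above 0 and lie between 3.62% with scrambled probes and 7.12% in ODD replicate 2.

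The opposite arms of the same hairpins were scarce. Of miR-92a-1-5p, ODD replicates 1 to 3 counted 9, 22 and 1, EVEN replicates 1 to 3 counted 2, 8 and 5, and the scrambled library 1. The arm shares that follow pool the reads of all X1-probe libraries, so their intervals leave out the spread between libraries. miR-92a-1-5p was set against its own reads plus those of miR-92a-3p, which can come from either hairpin. Its share was 0.409% with X1 probes (47 reads, exact 95% interval 0.301 to 0.544) and 0.151% with scrambled probes (1 read, interval 0.00381 to 0.836). miR-92b-5p made up 0.492% with X1 probes (14 reads, interval 0.269 to 0.825) and 0.418% with scrambled probes (1 read, interval 0.0106 to 2.31). The 5' arm of miR-25 held a larger part, 6.88% with X1 probes (28 reads, interval 4.62 to 9.79) and 5.56% with scrambled probes (1 read, interval 0.141 to 27.3). The fourth listed arm, miR-92a-2-5p, was not among the 480 mature names. None of the 3 tested opposite arms passed in either comparison. Of the seed relatives, miR-32-5p had 1 read in all, in ODD replicate 2, and miR-363-3p and miR-367-3p were not among the 480 mature names.

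The members' cluster partners were captured at far lower levels than the members themselves. Of the 10 listed partners of the miR-17-92 cluster, 5 were tested against scrambled probes and 1 passed the threshold, miR-17-5p, a regulator of the cell cycle, but no change is read from it. ODD replicates 1 to 3 counted 8, 17 and 5 of its reads, EVEN replicates 1 to 3 counted 12, 5 and 3, and the scrambled library 0 (limma, adjusted p = 0.000662), and its mean of 786 ± 393 RPM with X1 probes (SD, n = 6) compares with 646 RPM for 3 reads in the scrambled library. On simulated libraries with counting error alone and no difference, the fit against a single scrambled library still called some names, most with 0 scrambled reads. The call of miR-17-5p cannot be told apart from such calls. No microRNA passed, miR-17-5p included, with the description number as a block or without EVEN replicate 2. miR-19b-3p had 211 RPM with X1 probes and 215 RPM with scrambled probes, miR-18a-3p 158 RPM with X1 and 215 RPM with scrambled probes, and miR-20a-5p 135 RPM with X1 and 0 RPM with scrambled probes. miR-17-3p had 8 reads with X1 probes and 1 with scrambled probes. These 4 did not pass.

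Of the 4 listed partners in the miR-106b-25 cluster, 2 were tested and 0 passed. With X1 probes miR-106b-3p averaged 954 ± 235 RPM, against 861 RPM with scrambled probes, and miR-93-5p averaged 878 ± 355 RPM, against 430 RPM, worth 2 reads (SD, n = 6 X1-probe libraries). None of the 7 listed partners in the miR-106a-363 cluster passed the filter, and miR-106a-5p had 2 reads in all. Between ODD and EVEN probes 0 of the 7 tested partners passed. miR-92a-3p had 11437 reads with X1 probes, and the listed miR-17-92 partner with the most reads, miR-17-5p, had 50. The reads of miR-92a-3p cannot be assigned to MIR92A1 or MIR92A2. The microRNAs of red blood cells, a cell type also known for much miR-92a, had 23 reads with X1 probes and 1 with scrambled probes. These came from 2 of 4 listed names. miR-486-5p had 22 reads with X1 probes and 1 with scrambled probes, and miR-451a had 1 read in all.

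The pattern of each member over the 7 libraries was compared with those of the 67 other names of at least 1000 RPM on average, by Pearson's r of log2(RPM + 10), as a description of 7 points that share their libraries and depths. miR-92a-3p was most like miR-99b-5p (r = 0.75), miR-100-5p (0.65) and miR-125a-5p (0.62). miR-92b-3p was most like miR-5096 (0.93), miR-6087 (0.88) and miR-3180-3p (0.82), and miR-25-3p most like miR-5701 (0.67), miR-151a-3p (0.63) and miR-146a-5p (0.57). The members were not each other's nearest: r was 0.47 between miR-92a-3p and miR-92b-3p, -0.063 between miR-92a-3p and miR-25-3p, and 0.18 between miR-92b-3p and miR-25-3p.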

How the data were processed

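The authors deposited RPM for 498 hairpin and mature pairs in 7 libraries. The unit was read from the values, since each deposited column sums to 1e+06, and the steps between values gave whole reads (100% within 1e-06). CASAVA 1.8 and cutadapt 1.2.1 are named in the submitters' processing notes. The mapping tool is not given in the sources used. Groups came from the sample titles. The higher hairpin row stood for each of 480 names (17 names had 35 rows). Names reaching 10 RPM in at least 3 libraries, 242 in all, entered limma 3.58.1 (R 4.3.3) as log2(RPM + 10), a mean per group, eBayes with trend, two-sided, Benjamini-Hochberg at 0.05 over all 242. Single values of ODD against EVEN had exact permutation tests (SciPy 1.17.1). Intervals are exact Clopper-Pearson 95% intervals and hold counting error alone, as the labels name no molecular identifiers and PCR copies are not separate molecules. Labels do not say whether captures came from separate cultures, so p-values may measure technical spread. RefSeq mature names matched 406 of the 480 table names.

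The members, lists and tests were chosen with earlier results of these data known. Named were the members, their opposite arms, seed relatives, cluster partners of at least 100 RPM, rank neighbours, and the 3 names most like each member. The alternatives were other pseudocounts, filters, hairpin rows, scalings, no trend, the replicate block, left-out libraries and, added after seeing the data, voom weights and a fit without replicate 3 of ODD and EVEN. On simulated data without differences, ODD against EVEN gave no false calls, while the fit against the single scrambled library gave some. Where abundant names were changed in the simulation, unchanged names were also called, and the cause was not tested. The simulated libraries held counting error alone, without further spread between captures. Few of the changes simulated in scarce names were recovered.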

Additional observations from a re-analysis of the deposited data

How the results depend on the processing

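For X1 probes against scrambled, all 3 members stayed short of the threshold in 18 other settings each. The log2 difference ran from 0 to 0.085 for miR-92a-3p, where 0 is what quantile scaling gives a name that ranks first in every library, from -0.51 to -0.12 for miR-92b-3p and from 0.31 to 0.77 for miR-25-3p, with adjusted p from 0.459 to 1 by limma. With the description number as a replicate block the values were 0.055, -0.12 and 0.77. The scrambled library has number 12 only, so these values repeat the comparison within that number and are no second check. With the mean of each probe set taken out, same-numbered ODD and EVEN libraries had correlations of -0.044, 0.073 and 0.019 over 242 names. Differently numbered pairs ran from -0.10 to 0.069. Names with few reads counted as much as abundant ones, so these values cannot tell whether the number pairs the libraries. Leaving out 1 library gave 0.012 to 0.069, -0.47 to -0.29 and 0.35 to 0.61. The added fit without replicate 3 of both probe sets gave 0.046, -0.51 and 0.31.

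For ODD against EVEN no member passed in 19 other settings, and the sign turned in some; the cause was not tested. Leaving out 1 library gave -0.099 to 0.021 for miR-92a-3p (sign turned without ODD replicate 2 or 3 or EVEN replicate 3), -0.11 to 0.18 for miR-92b-3p (without ODD replicate 2 or EVEN replicate 3) and -0.24 to 0.24 for miR-25-3p (without ODD replicate 3 or EVEN replicate 1). Without replicate 3 of both sets the values were 0.060, 0.091 and -0.079. Quantile scaling gave 0.043 for miR-92b-3p and -0.14 for miR-25-3p, and voom weights -0.081 for miR-25-3p.

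Rescaled over 1 row per name, the level with X1 probes moved to 202640 RPM for miR-92a-3p, 54723 for miR-92b-3p, 7098 for miR-25-3p and 264462 for the family, against 147916, 40027, 5203 and 193146 RPM as deposited, since repeated rows leave the total. With hairpin rows summed miR-92a-3p had 287397 RPM and the family 332628, and a read counted in both rows would enter these sums 2 times. Without 1 library the levels were 144992 to 149739, 37963 to 41921, 4861 to 5576 and 188897 to 196995 RPM. Over all microRNAs, X1 probes against scrambled gave more calls than the main fit with no filter and without the trend. It gave fewer under quantile scaling and with voom weights, and no calls with the block or without EVEN replicate 2. ODD against EVEN gave 1 call, 3 without the trend, and 0 in 12 of the other settings. edgeR and DESeq2 were not run, although whole reads could be recovered. Depth limits miR-25-3p most, with 17 scrambled reads.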
